A study of Mus musculus with 36 samples.

Results

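The comparison described here is between mouse bone-marrow derived macrophages cultured alone and given myelin debris for 6 h (3 libraries) and the same kind of culture at 0 h, the control time (3 libraries). These 6 of the 36 bulk RNA libraries of the series were taken by their labels for cell type, mono-culture and hours. The macrophages were sorted as dTomato-positive cells, and the labels give neither strain, age nor sex of the donors, nor what drives the dTomato. Apart from the dTomato, the labels name no genetic change and no further treatment of these macrophages. The rest of the series holds macrophages after 24 h, macrophages grown with tumour cells of a PDGFB-driven, Ink4a/Arf-null glioma, and those tumour cells themselves. The labels do not state whether a group's 3 libraries stem from different cultures or mice. Sex-linked transcripts (below) set the library numbered 001 of each group apart, so a group's libraries do not all stem from the same mouse. Whether the others differ in donor is not known, so p-values measure a spread between libraries that may be partly technical. That spread was estimated over all macrophage libraries of the series, not from these 6 alone. It includes macrophages at 24 h and macrophages grown with tumour cells. The labels also do not say how long the 0 h cultures were kept, so myelin and time in culture cannot be told apart.

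Myelin is membrane rich in cholesterol and in sphingolipids, and a macrophage that engulfs it has to free, store or export that cholesterol. Cells hold their sterol level through opposing controls. When sterol is scarce in the endoplasmic reticulum, the SREBP transcription factors are released and switch on cholesterol synthesis and sterol uptake. When sterol is plentiful SREBP is retained, and oxysterols activate the LXR receptors, whose targets export cholesterol.

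Total counts ran from 7911378 to 14708387 per library. Macrophage markers (Csf1r, Adgre1, Itgam, Fcgr1, Cd68, Mertk, Lyz2 and Cd14) were all detected in every library, at a summed 9439 to 13594 CPM (counts scaled to the library total) at 0 h and 9681 to 13762 at 6 h. Fibroblast, dendritic, mast cell and lymphocyte markers summed to at most 9.44 CPM each, and erythroid markers were at 0 counts. Neuron and astrocyte markers summed to 15.5 to 37.3 CPM, nearly all Aldh1l1, and endothelial markers to 12.2 to 18.6 CPM, nearly all Kdr. Neutrophil markers summed to 6.94, 33.7 and 12.4 CPM at 0 h and 9.86, 37.8 and 51.0 at 6 h, and their part in the results was not tested. Markers of glioma and neural progenitors, mainly Nes, Cspg4 and Fabp7, summed to 59.5 to 133 CPM at 0 h and 75.3 to 129 at 6 h. Of the same markers, Sox2, Bcan and Ptprz1 were at 0 counts in all 6 libraries. Pdgfra and Sox9 reached at most 0.567 CPM and Egfr at most 3.40. The 2 libraries numbered 001 stood apart from the others. The transcript CT010467.1 took 17.4% and 15.1% of their counts against 0.391% to 1.04% elsewhere. They held Ddx3y (61.6 and 56.8 CPM) and no Xist, while the others held Xist (531 to 1243 CPM) and no Ddx3y. By these sex-linked transcripts, library 001 of each group came from male cells and libraries 002 and 003 from female cells. On a principal component analysis of the 6 libraries, the first component (67.0% of the variance) set the 001 libraries apart. The second (13.5%) separated the times, with scores of 9.96 to 24.7 at 0 h and -24.0 to -11.0 at 6 h.

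By 6 h the macrophages had lowered most genes of cholesterol synthesis and raised the sterol exporter Abca1. Most inflammatory, lysosomal and foam-cell genes passed the test in neither direction, and the same held for most of all genes tested. In such bulk libraries, fewer cells of a type and less RNA per cell cannot be told apart. Genes count as called where edgeR's quasi-likelihood test gave an adjusted p (Benjamini-Hochberg, over all 13165 genes tested) under 0.05. Of these 283 (2.15%) were called, 129 higher (0.98%) and 154 lower (1.17%). The 6 h and 0 h libraries did not overlap in 282 of the 283, against 16.3% of all genes tested. Most changes were small, and 42 called genes changed by 2-fold or more (22 higher, 20 lower). The median change of all genes was 0.02 on the log2 scale. With the library number as a block, 668 genes were called (5.07%), 317 higher (2.41%) and 351 lower (2.67%), including 282 of the 283. The count depended on single libraries: it was 55 without 0 h library 002, 25 without 0 h library 003, 31 without 6 h library 003 and 547 without 6 h library 001. Of the 43 named genes that were called, 19, 7 and 12 stayed called in the first 3 of these cases.

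Cholesterol is built from acetyl-CoA in a mevalonate arm, which ends in farnesyl pyrophosphate, and a sterol arm, which runs from squalene to cholesterol. Of the 21 enzyme genes of both arms, all of them tested, 15 fell, 0 rose and 6 did not pass the test. Their median log2 change was -0.96. Hmgcs1, which makes HMG-CoA, stood at 257, 285 and 308 CPM (after TMM normalisation, as for all gene levels below) in the 0 h libraries 001, 002 and 003 and at 89.6, 81.4 and 90.0 at 6 h. All 6 h libraries lay far below all 0 h libraries, a log2 change of -1.71 ± 0.28 (SE, adjusted p = 0.0104). Idi1, the isopentenyl isomerase, went from 38.4, 51.4 and 64.6 to 18.3, 22.5 and 21.9 CPM (-1.30 ± 0.20, adjusted p = 0.00615). Mvd (-1.01) and Acat2 (-0.86), which catalyse other steps of this arm, fell as well. Fdps, the farnesyl pyrophosphate synthase, fell from 10.4, 7.39 and 9.14 to 2.44, 2.50 and 3.61 CPM (-1.63 ± 0.30, adjusted p = 0.0134), a value that is uncertain because the gene has near-identical pseudogene copies. The kinases Mvk (-0.60, adjusted p = 0.142) and Pmvk (-0.43, adjusted p = 0.176) had values below 0 that did not pass, and Ggps1, which leads to protein prenylation and away from sterols, stood at 0.00.

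In the sterol arm, 9 of 12 genes fell and 0 rose. Fdft1, the squalene synthase that commits the pathway to sterols, stood at 83.5, 106 and 103 CPM at 0 h and at 38.5, 28.7 and 33.5 at 6 h, a log2 change of -1.55 ± 0.22 (adjusted p = 0.00565). Cyp51, the lanosterol demethylase, went from 237, 313 and 332 to 108, 130 and 143 CPM (-1.21 ± 0.26, adjusted p = 0.0276). For both genes the groups were well apart, with the 001 library the lowest at 0 h. Hsd17b7 (-1.27), Msmo1 (-1.12), Lss (-0.99), Sqle (-0.96), Sc5d (-0.90), Nsdhl (-0.74) and Dhcr7 (-0.59), all enzymes between squalene and cholesterol, also fell. Tm7sf2 (-0.14) and Ebp (0.16) were among those that did not pass. The count of 15 was 6 without 0 h library 002, 3 without 0 h library 003, 9 without 6 h library 002 and 4 without 6 h library 003, and it was 8 when only the 6 libraries compared entered the fit. The median change kept its sign throughout and lay between -1.04 and -0.86 over all alternatives run.

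**Figure D1:**
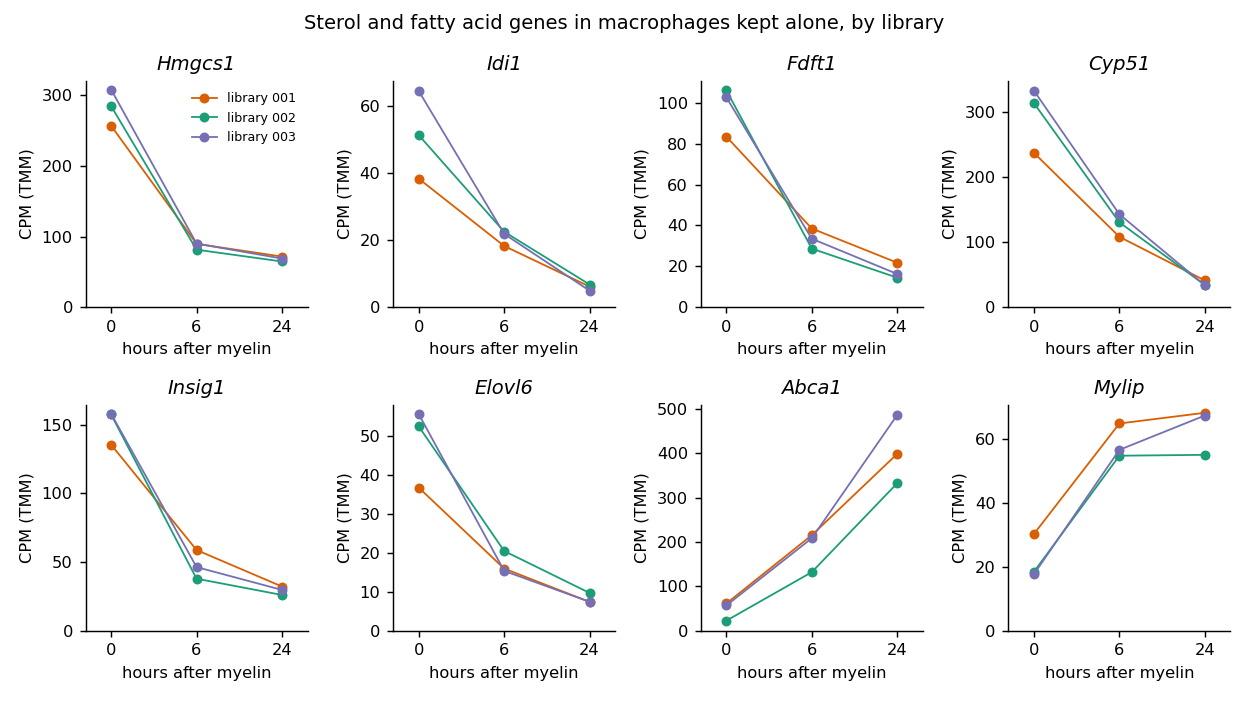
Level of 8 genes (CPM after TMM normalisation, vertical axis from 0) at 0, 6 and 24 h after myelin in macrophages kept alone, each point 1 library and lines joining libraries of the same number. Hmgcs1, Idi1, Fdft1, Cyp51, Insig1 and Elovl6 were lower and Abca1 and Mylip higher in every 6 h library than in any 0 h library.

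The promoters of 3 genes that fell are shown because SREBP acts on such genes through the sterol regulatory element, here searched as TCACNCCAC on both strands, together with NF-Y at the CCAAT box, searched as CCAAT on both strands. Windows are the 250 bases before the RefSeq start site (GRCm38.p6), written 5′ to 3′ along the gene, with matches in capitals. They are Hmgcs1 at chr13:119690101-119690350 (plus strand), Insig1 at chr5:28071162-28071411 (plus strand) and Cyp51 at chr5:4104698-4104947 (minus strand).
Hmgcs1: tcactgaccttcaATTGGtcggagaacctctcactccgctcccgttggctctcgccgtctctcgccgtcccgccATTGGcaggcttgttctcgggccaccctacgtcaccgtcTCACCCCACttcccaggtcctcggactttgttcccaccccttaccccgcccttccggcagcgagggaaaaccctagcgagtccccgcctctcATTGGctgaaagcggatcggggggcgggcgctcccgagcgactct
Insig1: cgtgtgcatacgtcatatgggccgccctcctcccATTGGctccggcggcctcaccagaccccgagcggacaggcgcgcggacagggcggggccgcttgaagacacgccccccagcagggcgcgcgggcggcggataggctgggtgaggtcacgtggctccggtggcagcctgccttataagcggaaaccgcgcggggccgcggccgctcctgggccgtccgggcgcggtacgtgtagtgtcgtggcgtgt
Cyp51: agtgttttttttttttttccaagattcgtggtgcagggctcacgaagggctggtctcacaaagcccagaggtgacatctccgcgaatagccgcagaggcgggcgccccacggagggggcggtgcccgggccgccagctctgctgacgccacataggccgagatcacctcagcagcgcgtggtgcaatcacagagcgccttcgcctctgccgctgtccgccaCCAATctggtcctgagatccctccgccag
In Hmgcs1 the sterol element begins 137 bases before the start, and reversed CCAAT boxes (ATTGG) begin 237, 176 and 45 bases before it. Insig1 holds a reversed CCAAT box 216 bases before the start and Cyp51 a forward one at 29 bases. Of the 15 synthesis genes that fell, 11 had a window in the table. The sterol element was in 1 of them (Hmgcs1), against 1.22% of all 27025 genes with a window. A CCAAT box was in 10 of them, against 37.5%. Among the 9776 tested genes with a window these shares were 1.21% and 40.9%. The CCAAT search was added after the data were seen. The DR4 element of LXR (AGGTCA, 4 bases, AGGTCA) was in 0 of the 3 LXR targets that rose and in 0.0148% of all genes with a window. It was in 0 of the 9776 tested genes with a window, so this exact search could not tell LXR targets from other tested genes. A match is only a description of the letters in that window.

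Among 11 tested genes of SREBP control and sterol uptake, 5 fell and 0 rose. Insig1, which holds the SREBP complex in the endoplasmic reticulum and is itself an SREBP target, went from 135, 157 and 158 to 58.7, 37.9 and 46.3 CPM (-1.67 ± 0.29, adjusted p = 0.0110). Stard4, a carrier of cholesterol between membranes, went from 97.1, 133 and 147 to 41.5, 47.1 and 48.8 CPM (-1.46 ± 0.24, adjusted p = 0.0102). Srebf2, which encodes SREBP2, the sterol-regulating family member, fell by less, from 279, 364 and 335 to 188, 215 and 231 CPM (-0.63 ± 0.14, adjusted p = 0.0320), and so did Mbtps1, the protease that makes the first cut in SREBP (-0.32). Srebf1 was not called (-0.24, adjusted p = 0.281), nor were the escort Scap (0.01), Insig2 (0.09) or the lysosomal sterol carrier Npc2 (0.17).

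Of 10 tested LXR targets, 3 rose and 0 fell (5 higher with the block), with a median log2 change of 0.39. Abca1, which loads cholesterol onto apolipoprotein A-I, stood at 61.5, 22.8 and 57.1 CPM at 0 h and at 215, 132 and 208 at 6 h. Library 002 was the lowest of both groups, yet its 6 h level lay above every 0 h library, and the log2 change was 1.99 ± 0.42 (adjusted p = 0.0271). Abca1 was called in 7 of 13 alternatives. The call of Abca1 was lost without 0 h library 002 or 003 or 6 h library 003. It was also lost with no low-count filter, with only the compared libraries in the fit, and with libraries 002 and 003 alone. Over all alternatives its adjusted p reached 0.221 and its change stayed between 1.64 and 2.20. Mylip, a ubiquitin ligase, went from 30.3, 18.5 and 17.7 to 64.8, 54.8 and 56.6 CPM (1.43 ± 0.22, adjusted p = 0.00717). Arl4c, a small GTPase, rose by 0.73 ± 0.16 (adjusted p = 0.0271). Abcg1, which exports cholesterol to HDL, had 307, 140 and 187 CPM at 0 h and 469, 283 and 422 at 6 h. Those groups overlapped between library 001 at 0 h and library 002 at 6 h. Abcg1 was not called (0.89 ± 0.31, adjusted p = 0.158) but was with the block (adjusted p = 0.0189), as was Nr1h3, the gene of LXR alpha (0.44, adjusted p = 0.254 without and 0.0403 with the block). Apoe, whose product carries exported cholesterol, spanned 634 to 1050 CPM at 0 h and 517 to 1150.1 at 6 h (-0.06, adjusted p = 0.986).

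Of 14 tested genes of fatty acid synthesis, which the other SREBP arm serves, 3 fell and 0 rose (5 lower with the block), with a median of -0.26. Elovl6, which lengthens palmitate, went from 36.8, 52.5 and 55.7 to 16.0, 20.5 and 15.4 CPM (-1.48 ± 0.18, adjusted p = 0.00331). Fasn, the fatty acid synthase, went from 391, 433 and 475 to 309, 228 and 197 CPM (-0.83 ± 0.17, adjusted p = 0.0223). The fall of Fasn was small in the 001 pair and larger in the other pairs. Acly, which supplies cytosolic acetyl-CoA, fell by 0.54 ± 0.09 on the log2 scale (adjusted p = 0.00990). The desaturase genes Scd2 (-0.46) and Fads1 (-0.27) were called only with the block, and Scd1 (0.11) was called with neither.

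Genes for taking up, storing and burning lipid were mostly not called at 6 h, like most of all genes tested (2.15% called). Of 18 tested genes of lipid uptake and storage, 1 fell and 0 rose, and the one was Acsl3, an acyl-CoA synthetase of lipid droplets (-0.95 ± 0.20, adjusted p = 0.0223). Plin2, the droplet coat protein, had 750, 670 and 585 CPM at 0 h and 771, 667 and 782 at 6 h, overlapping groups (0.15, adjusted p = 0.639). The scavenger receptor Cd36 (0.02, adjusted p = 0.992) and the lipase Lpl (-0.31, adjusted p = 0.647) overlapped too, and the sign of the Cd36 value changed with the scaling. None of 16 fatty acid oxidation genes passed at 6 h, and 1 was higher with the block, Acadl, a dehydrogenase (0.36, adjusted p = 0.0143). None of 20 genes of the lipid-associated macrophage state passed either, with a median of 0.13. Trem2 (0.17), Gpnmb (0.10) and Spp1 (0.23) were among them. Of 30 lysosomal genes 29 had a value above 0 with a median of 0.16. Over all genes tested 7043 of 13165 had a value above 0, with a median of 0.02. The only gene of the lysosomal list that rose was Atp6v1h, a subunit of the proton pump (0.53 ± 0.12, adjusted p = 0.0360). With the block 2 of the list were higher, the other being Glb1, a galactosidase (0.32, adjusted p = 0.0130). Atp6v1d, a pump subunit outside the list, was called higher as well (0.49, adjusted p = 0.0421 in edgeR). Of 22 sphingolipid genes the one called was Sgms1, a sphingomyelin synthase, which fell (-0.44 ± 0.09, adjusted p = 0.0212). Its relative Sgms2 was called only with the block (0.53, adjusted p = 0.0145).

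**Figure D2:**
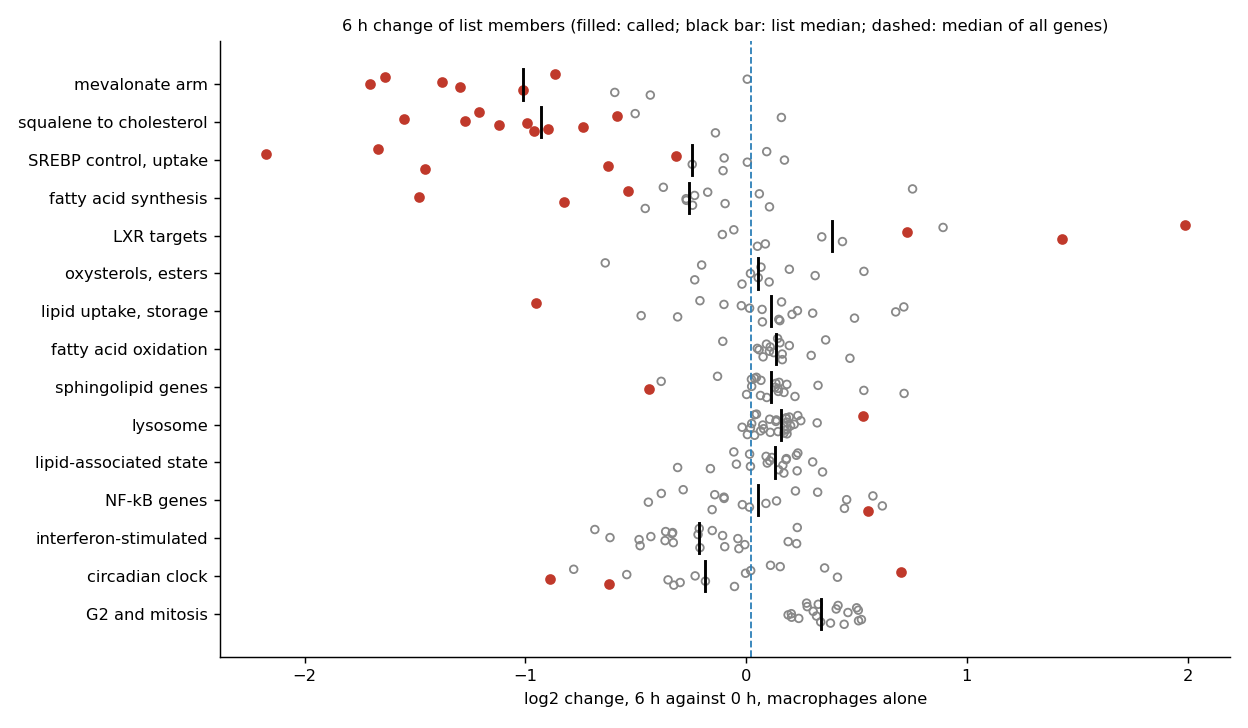
Log2 change at 6 h (horizontal axis) of the tested members of 15 gene lists, 1 point per gene, with called genes filled, list medians as black bars and the median of all genes as a dashed line. The filled points of both cholesterol synthesis lists all lie below 0, and those of the LXR targets above it.

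Among receptors for debris, 1 of 20 rose and 0 fell. That was Olr1, a receptor for oxidised LDL, which had 0, 7 and 4 counts at 0 h and 14, 20 and 27 at 6 h (2.61 ± 0.49, adjusted p = 0.0147). These counts are low, although the groups do not overlap. Scarb1, a receptor for HDL, was called only with the block, where it was lower (-0.32, adjusted p = 0.0133). Of 18 tested NF-kB and cytokine genes 1 rose, Zc3h12a (0.55 ± 0.10, adjusted p = 0.0134), an RNase that degrades cytokine messages. With the block 2 were higher, the other being Nfkbia, the NF-kB inhibitor (0.46, adjusted p = 0.0179). Tnf had 47.9, 41.3 and 36.6 CPM at 0 h and 45.8, 80.4 and 64.4 at 6 h, overlapping groups (0.62, adjusted p = 0.319). Il1b was near 0 in every library, at no more than 0.940 CPM. None of 20 chemokine and receptor genes passed, Ccl2 included (0.81, adjusted p = 0.452), and none of 22 interferon-stimulated genes, whose median was -0.22. With the block Stat2 was lower (-0.48, adjusted p = 0.0447). None of 10 MHC class II genes and none of 11 complement genes passed. Of 15 growth factors 1 rose: Pdgfa, a ligand of the PDGF receptors, from 35.2, 32.2 and 27.4 to 57.2, 48.1 and 58.5 CPM (0.79 ± 0.14, adjusted p = 0.0114). With the block 3 of the 15 were higher, Pdgfa, the cytokine Osm (0.90, adjusted p = 0.0479) and Hgf (0.48, adjusted p = 0.0224). Pdgfb, a relative of Pdgfa, had 87.6, 159 and 112 CPM at 0 h and 81.9, 158 and 121 at 6 h (0.01, adjusted p = 1.00). Of 18 macrophage lineage genes 1 rose, Cebpa, a myeloid transcription factor (0.69 ± 0.14, adjusted p = 0.0212). Its relative Cebpb rose from 16.3, 11.9 and 13.9 to 26.3, 17.7 and 32.1 CPM (0.87 ± 0.21, adjusted p = 0.0408). Cebpb was called in 7 of 13 alternatives (adjusted p up to 0.272).

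Of 17 clock genes 3 were called. Cry1, a repressor of the clock, rose (0.70 ± 0.15, adjusted p = 0.0233). Nr1d1, the repressor REV-ERB alpha (-0.89 ± 0.19, adjusted p = 0.0233), and Per3 (-0.62 ± 0.15, adjusted p = 0.0408) fell. Per3 was called in 6 of 13 alternatives (adjusted p up to 0.276). With the block Nr1d2, a relative of Nr1d1, was lower too (-0.35, adjusted p = 0.0166). Time of day was not given for the libraries and was not tested. None of 19 S phase genes and none of 19 mitosis genes was called, although all of the latter had values above 0, between 0.19 and 0.52. Values above 0 were found for 7043 of all 13165 genes tested.

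Outside the lipid genes, Tent5c (mm10, chromosome 3, 100451628 to 100489324), which encodes a poly(A) polymerase, rose. It stood at 13.0, 12.2 and 11.3 CPM at 0 h and at 53.0, 39.9 and 68.7 at 6 h. The 0 h libraries were nearly equal and every 6 h library lay well above them, a log2 change of 2.15 ± 0.27 (adjusted p = 0.00331). Tnfrsf12a, the receptor of the cytokine TWEAK, went from 13.7, 16.4 and 13.2 to 42.2, 25.8 and 28.0 CPM (1.12 ± 0.19, adjusted p = 0.0104). Sgk1, a kinase of ion transport and cell survival, went from 116, 96.9 and 109 to 225, 198 and 267 CPM (1.10 ± 0.21, adjusted p = 0.0162). Both genes had no overlap between the times. Jag1, a ligand of Notch receptors, went from 37.4, 46.3 and 40.3 to 78.4, 106 and 55.9 CPM (0.95 ± 0.22, adjusted p = 0.0408), with the smallest rise in library 003. Its call was lost without any 1 of the libraries other than 6 h library 003 (adjusted p up to 0.226 over all alternatives). Cd109, a co-receptor of TGF-beta, rose by 1.15, the kinase Plk3 by 1.01 and the enolase Eno2 by 1.00. The coactivator Eya4 rose by 1.00 and the adaptor Sh2b2 by 0.96. Cd109 and Eno2 were each called in 7 of 13 alternatives (adjusted p up to 0.128 and 0.304). Tmeff1 had 2.31, 3.90 and 1.08 CPM at 0 h and 6.70, 16.9 and 8.02 at 6 h (2.12 ± 0.47, adjusted p = 0.0322). It was called in 6 of 13 alternatives and lost without any 1 of the 0 h libraries or without 6 h library 002 or 003, with a change between 1.57 and 2.80. Among genes that fell outside the lipid lists were Rnd3, an atypical small GTPase (-1.19 ± 0.28, adjusted p = 0.0437), and Fam120c (-1.17 ± 0.23, adjusted p = 0.0171). Rnd3 was called in 6 of 13 alternatives, its call being lost without any 1 of the 6 libraries other than 0 h library 001 (adjusted p up to 0.197 over all alternatives).

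With the block, 10 further genes met the rule for being named. Rhov (0.92), Plau (0.90), which encodes urokinase, Optn (0.89), Tgm2 (0.87), which encodes a transglutaminase, and Dennd2a (0.83) were higher. Cass4 (-1.08), Lama3 (-1.01), Arhgap26 (-0.89), Ralgapa2 (-0.85) and Maml3 (-0.74) were lower. Plau had 592, 821 and 726 CPM at 0 h and 883, 1628 and 1470.4 at 6 h. Its adjusted p was 0.142 without and 0.0363 with the block, while the groups did not overlap. In the fits with the block that left out 1 library, Rhov, Plau, Tgm2 and Lama3 were called in 1 of 6, Cass4 and Ralgapa2 in 2, Optn and Maml3 in 3, and Dennd2a and Arhgap26 in 6.

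Levels at 24 h are given beside those at 6 h, from a direct test of 24 h against 6 h that called 1621 genes (12.3%). This comparison shares the 6 h libraries with the one above. Plk3 had 5.51, 10.4 and 5.88 CPM at 24 h, below its 18.1, 20.4 and 21.2 at 6 h (-1.44, adjusted p = 0.000584). Jag1 had 34.6, 46.5 and 27.8 CPM at 24 h (-1.14, adjusted p = 0.00567) and Tmeff1 0.902, 3.41 and 1.41 (-2.44, adjusted p = 0.00550), so that both were back in or near the range of the 0 h libraries. Tent5c had 45.7, 41.4 and 49.8 CPM at 24 h, and a difference from 6 h was not called (-0.24, adjusted p = 0.579). Abca1 had 398, 332 and 486 CPM at 24 h, every library above every 6 h library, with a change from 6 h that did not pass (1.13, adjusted p = 0.0795). Idi1 had 6.12, 6.75 and 4.89 CPM at 24 h (-1.82 from 6 h, adjusted p = 0.000334), Sqle fell by a further 1.93 and Cyp51 by a further 1.82 on the log2 scale. For Hmgcs1 (-0.35, adjusted p = 0.466) the change from 6 h to 24 h was not called. Plin2 rose between 6 h and 24 h (0.73, adjusted p = 0.00335).

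**Figure D3:**
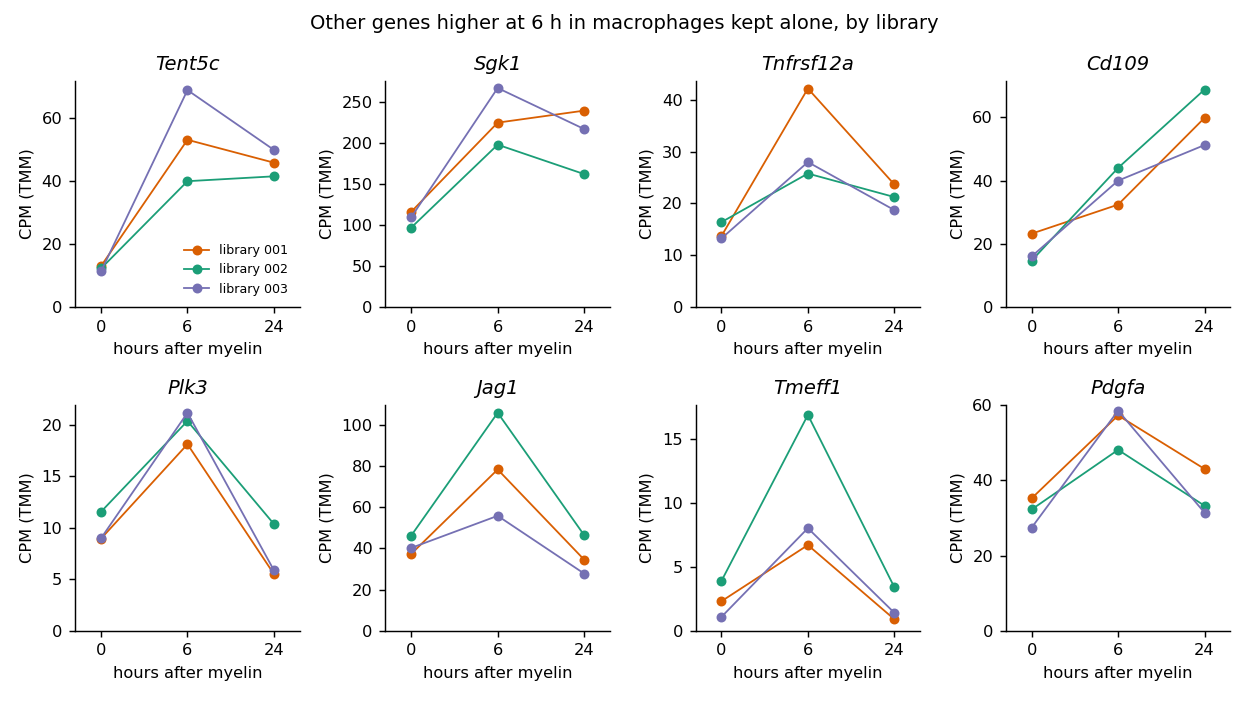
Level of 8 further genes called higher at 6 h (CPM after TMM normalisation, vertical axis from 0) at 0, 6 and 24 h in macrophages kept alone, each point 1 library and lines joining libraries of the same number. Plk3, Jag1, Tmeff1 and Pdgfa were lower at 24 h than at 6 h, while Cd109 had its highest levels at 24 h.

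The same 6 h change was measured in macrophages that shared the culture with glioma cells, with 0 h libraries of their own. There 28 genes were called (0.213%), and 21 of them were called in the same direction in macrophages kept alone, which is 75.0% of the co-culture calls and 7.42% of the 283. With the block 236 genes were called in co-culture, and 0 to 8 without the block when any 1 of its 6 libraries was left out. The 2 comparisons use the same library numbers and 1 estimate of the spread. Tent5c (1.27), Cry1 (0.88), Galnt6 (0.96), Sat1 (0.70) and Prkag2 (-0.42) were among the shared genes. Of all 283 genes called in macrophages alone, 273 had a co-culture value of the same sign. Of the 43 named genes called in macrophages alone, all 43 had a co-culture value of the same sign and 2 were called. These genes were chosen by their change in macrophages alone, so the sizes in both cultures are not compared. The test of the difference between cultures called 0 of 13165 genes (0%), with 332 genes at an unadjusted p under 0.05, and DESeq2 called 1. edgeR called 8 with libraries 002 and 003 alone, and 0 to 1 with 1 library left out. Of the 21 cholesterol synthesis genes 0 were called in co-culture, while 19 had values below 0, with a median of -0.40. Over all genes tested, 6658 of 13165 had a co-culture value below 0. Hmgcs1 in co-culture had 160, 170 and 185 CPM at 0 h and 43.9, 144 and 133 at 6 h. Its 6 h library 001 lay far below the other two. The 22 interferon-stimulated genes had a median of -0.22 alone and 0.39 in co-culture, with none called in either.

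**Figure D4:**
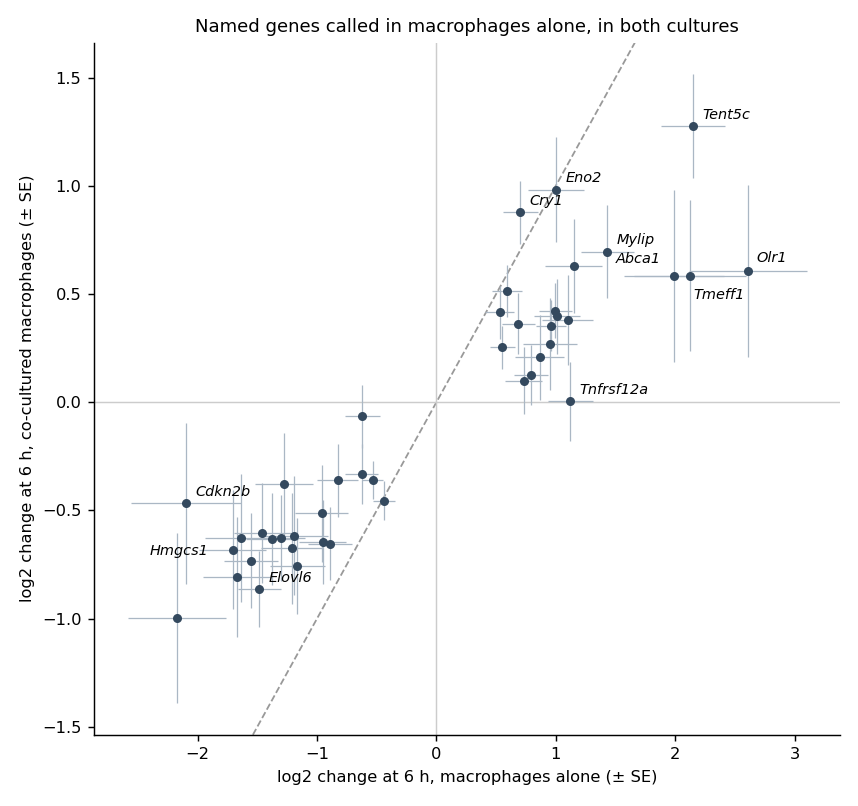
Log2 change at 6 h of the 43 named genes called in macrophages alone, in macrophages alone (horizontal axis) and in co-culture (vertical axis), with standard errors as bars and the line of equal change dashed. All points lie on the same side of 0 on both axes. The genes were chosen by their change on the horizontal axis.

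Mobp, a gene of oligodendrocyte myelin, had 0 counts in the 3 libraries at 0 h and 28, 42 and 21 at 6 h. Against a floor of 3 counts over the 0 h group this was at least 31.1-fold higher. At 24 h the counts were 6, 9 and 5. In co-cultured macrophages Mobp had 0 counts in each 0 h library and 40, 20 and 44 at 6 h, and in tumour cells 0 to 3 counts in every library. In the 6 libraries of macrophages alone at 0 h and 6 h, Mal and Sox10 were at 0 counts, and Opalin, Ermn and Cldn11 at no more than 1. The 11 myelin markers found in the table summed to 126, 180 and 161 CPM at 0 h and 125, 166 and 148 at 6 h, mostly Mbp and Cnp. Whether the Mobp counts come from RNA in the debris or from the macrophages was not tested.

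**Figure D5:**
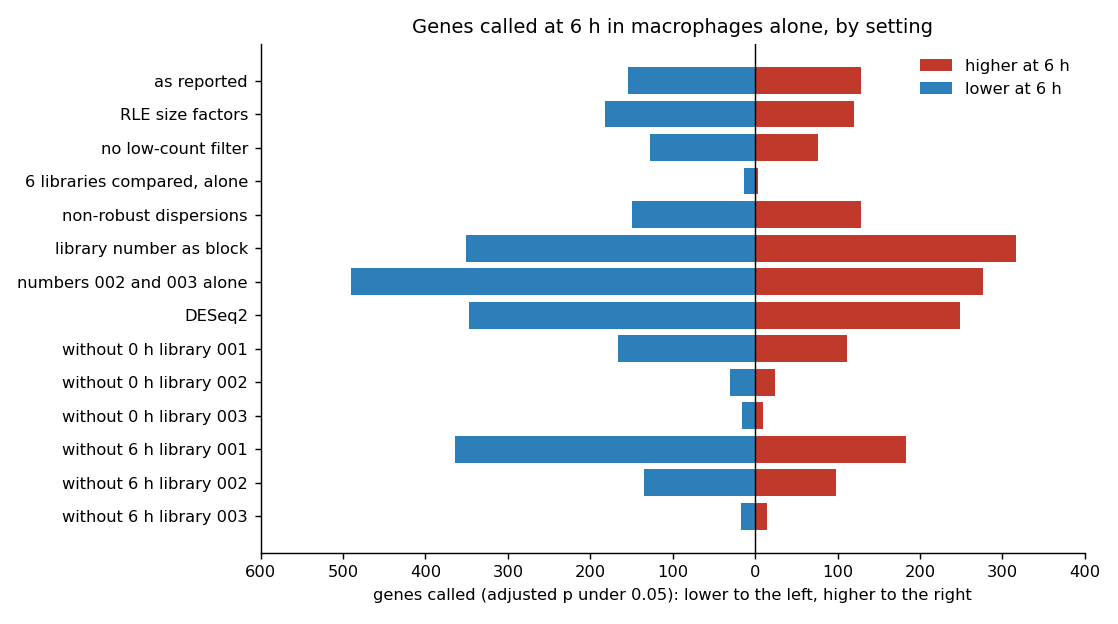
Number of genes called at 6 h in macrophages alone under each setting, lower genes to the left of 0 and higher genes to the right. The count was 283 as reported, 668 with the library number as a block, 766 with the libraries numbered 002 and 003 alone, and 17 when only the 6 libraries compared entered the fit.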

How the data were processed

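Per the labels' protocols, sorted macrophages were lysed, total RNA was column-purified, and libraries were made from a few nanograms by oligo-dT priming and template switching, which counts polyadenylated transcripts after amplification. The authors deposited whole-number counts for 29883 genes and 36 libraries, all of which were mapped to samples by their titles. The genome build is mm10 per the submitters' processing notes. With aligner and counter not given in the sources used here, genes with near-identical copies are uncertain.

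Counts were fitted in R 4.3.3 with edgeR 4.0.16, which loads limma 3.58.1. The 18 macrophage libraries, in 6 groups, entered 1 quasi-likelihood fit with TMM normalisation, filterByExpr and robust dispersions, so the 24 h and co-culture groups add to the estimate of the spread (12 residual degrees of freedom). The biological coefficient of variation was 0.164, or 0.102 once the number in a library's title was added as a block. Whether the number (001 to 003) pairs libraries was checked from residuals: same-number correlations between 0 h and 6 h were 0.801, 0.697 and 0.418, all above 0.1. Different-number correlations were negative wherever a library 001 was involved (-0.739 to -0.427), but 0.503 between 0 h 002 and 6 h 003 and 0.277 between 0 h 003 and 6 h 002, so the check mainly sets 001 apart. Blocked values are given where they change a call or move a count by over 1.5 times, for the genes and lists described. The standard error is the size of the log2 change over the square root of F. No 2 libraries of a group agreed within sampling noise.

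Members, lists and comparisons were chosen with earlier results of these data known. The rule for naming genes took the 12 called genes of largest change in each direction (mean CPM of at least 10 at 1 time, no overlap), up to 3 called members per list, genes followed throughout, and the 5 largest per direction called only with the block. Other list members are named where their list is described. Some genes that enter the counts are not reported here by name. Of 33 lists (527 symbols, 524 in the table), 17 had no called gene. Tried besides were RLE size factors, no filter, DESeq2 1.42.0, non-robust dispersions, the compared libraries alone, the block, and each library left out. Fits to libraries 002 and 003 alone were added after seeing the data. The fit was tested on data simulated without an effect of the library number, so that test does not cover the split of library 001. Promoter windows are from RefSeq.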

Additional observations from a re-analysis of the deposited data

How the results depend on the processing

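For macrophages alone the 283 calls became 17 when only the 6 compared libraries entered the fit (3 higher, 14 lower), 596 with DESeq2, 668 with the replicate block and 766 with libraries 002 and 003 alone, and ranged from 25 to 547 when 1 library was left out. With RLE size factors (302), no filter (204) and non-robust dispersions (278) the count moved by less than 1.5 times. The 28 co-culture calls became 56, 279, 236 and 112 in the same order, and 0 to 8 with 1 library left out. The difference between cultures had 0 calls, 1 with DESeq2, 8 with libraries 002 and 003 alone, and 0 to 1 with 1 library left out. The 15 cholesterol synthesis genes called lower became 8 with the compared libraries alone and 3 to 15 with 1 library left out. The 668 calls of the block became 1050 with the compared libraries alone and 135 to 870 with 1 library left out. The causes were not tested.

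All 43 named genes that were called kept their sign in every alternative run. DESeq2 gave no adjusted p for 1 of them, Olr1. They all stayed called with the block, so that the pairing ended none of their calls, and between 7 and 38 of them stayed called with 1 library left out. Tent5c, Fdft1 and Elovl6 were among those called under all 13 alternatives. Among named genes, signs changed only for some that were not called. Cd36 had -0.0038 with RLE size factors, -0.0057 with no filter, -0.0038 with the compared libraries alone, -0.0038 with DESeq2 and -0.052 with libraries 002 and 003 alone. Pdgfb had -0.0085, -0.0077, -0.010 and -0.0096 in the first 4 of these. With 1 library left out Cd36 ranged from -0.064 to 0.13, Pdgfb from -0.24 to 0.28, Apoe from -0.34 to 0.20, Gpnmb from -0.15 to 0.32 and Il1b from -0.65 to 1.42. Genes with few counts, such as Il1b and Olr1, are limited by depth.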

Other observations

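Further called genes outside the lists are given here; they were chosen after their values were seen. Both Pank3 (240, 265 and 275 CPM at 0 h, 146, 154 and 104 at 6 h, log2 change -0.95 ± 0.13, adjusted p = 0.00453 in edgeR) and Pank1 (-0.62), kinases that open coenzyme A synthesis, fell. So did Aacs, which activates acetoacetate for lipid synthesis (-0.89), and Pcyt2, an enzyme of phosphatidylethanolamine synthesis (-0.50). Prkag2 (28.7, 28.4 and 29.5 CPM, then 20.2, 21.2 and 19.5, -0.51 ± 0.07, adjusted p = 0.00557) and Prkab2 (-0.48), subunits of the energy sensor AMPK, fell as well. The GTPase gene Rragc rose by 0.39, the amino acid transporter Slc36a1 by 0.46 and the proton pump subunit Atp6v1d by 0.49. Slc6a8, the creatine transporter, went from 302, 222 and 227 to 468, 415 and 461 CPM (0.84 ± 0.15, adjusted p = 0.0105), and Sdc1, a cell surface proteoglycan, rose by 0.83.

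Dock8, which activates Cdc42, went from 354, 503 and 479 to 277, 290 and 205 CPM (-0.79 ± 0.14, adjusted p = 0.0121), and Dock11 fell by 0.44. The integrin gene Itga4 went from 233, 293 and 288 to 195, 183 and 118 CPM (-0.72 ± 0.15, adjusted p = 0.0233). Ptprc, which encodes CD45, fell by 0.47, the phosphatase gene Ptpn6 by 0.35, the adaptor Dok2 by 0.73, the kinase gene Pik3cg by 0.48, and the transcription factors Srf by 0.56 and Mef2c by 0.75. Mxra7 had 0 counts in each 0 h library and 7, 4 and 3 at 6 h, too few to size the change. Its call (adjusted p = 0.0408 in edgeR) was lost with the block (adjusted p = 0.0538). No enrichment was tested for any of these genes.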
